A study of Homo sapiens with 12 samples.

Results

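The nuclear genes of the respiratory chain were followed in HK-2 cells, an established line of human proximal tubular epithelium, after exposure to 3 drugs that injure the kidney. Members were the protein-coding genes whose symbols named a subunit of complex I (NDUFA, NDUFB, NDUFC, NDUFS or NDUFV and a digit), complex II (SDHA to SDHD), complex III (UQCR), complex IV (COX4 to COX8) or complex V (ATP5). This gave 90 of the 58735 genes in the count table and of its 19951 protein-coding genes. There were 37 in complex I, 4 in complex II, 9 in complex III, 19 in complex IV and 21 in complex V. The 12 poly(A) RNA-seq samples formed 4 groups of 3, namely cells given water (control), iohexol at 75 mg I/mL, cisplatin at 5 μM and vancomycin at 4 mM. Each drug acted for 48 h, and the duration of the control culture is not stated in the sources used here. All groups were the same cell line in the same medium, each drug was given at 1 dose and 1 time, and the labels do not say whether the 3 samples of a group were separate cultures, so the p-values measure only the spread between these samples.

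The respiratory chain lies in the inner mitochondrial membrane. Complex I takes electrons from NADH and complex II takes them from succinate, and both pass them to ubiquinone. Complex III hands them to cytochrome c and complex IV hands them to oxygen, while complexes I, III and IV pump protons that drive ATP synthesis by complex V. Complex II is encoded in the nucleus alone, whereas the other complexes join nuclear subunits to a few made from mitochondrial DNA. Proximal tubule cells in the kidney reabsorb most of the filtered solute and depend on oxidative phosphorylation for it, although cultured tubular lines rely more on glycolysis.

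Total counts per sample ranged from 14057282 to 18177109, and the members held between 0.491% and 0.729% of them. Levels are given as CPM, counts scaled to the library total and by TMM factors, which were between 0.961 and 0.976 in control, 1.02 and 1.04 in iohexol, 1.12 and 1.13 in cisplatin and 0.885 and 0.897 in vancomycin samples. The label of the cells was checked against markers, whose CPM were scaled to the library total alone, without TMM factors. Of 12 renal epithelial genes, 6 were above 50 CPM in every group, among them KRT8, KRT18, PAX8, CDH6 and GGT1, whereas the tubular endocytic receptor LRP2 was at or under 3 counts in every sample. The proximal tubule genes CUBN, ANPEP, AQP1 and SLC34A1 and the developmental factor PAX2 were low, with group means of 0.0183 to 4.96 CPM. Of markers of other cells, UMOD, SLC12A1, AQP2, CDH5 and CD68 were at or under 3 counts in every sample, VWF and PTPRC passed 3 counts in 2 samples and 1 sample, and SLC12A3, PDGFRB and PECAM1 had group means up to 1.80, 1.52 and 3.91 CPM. The fibroblast genes COL1A1 and DCN were above 3 counts in all 12 samples, with group means of 24.3 to 54.7 and 3.04 to 27.2 CPM, and DCN was at 11.9 CPM in control and 27.2 CPM in vancomycin samples. The part of these markers in the results was not tested. Sample vancomycin 2 had the highest level of its group for 65 of the 81 members tested with all 3 drugs. Sample iohexol 1 had the lowest level of its group for only 4 of them. In such bulk samples, fewer cells of a type and less RNA per cell cannot be told apart.

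Fewer members passed the test threshold with iohexol than with the other drugs, and so did fewer of all genes. The members' median log2 fold change was -0.15 with iohexol, 0.13 with cisplatin and 0.41 with vancomycin. A gene was called when the edgeR quasi-likelihood test gave an adjusted p under 0.05 over all genes tested, and it was a DEG when it was called and its log2 fold change was above 1 or below -1. With iohexol, 3 of 82 members tested were called higher, against 11.2% of all genes, and 8 were called lower, against 9.77% of all genes. The share called lower was thus close to the background here, but not in a fit of all 12 samples, where 18 of 83 were lower against 13.4% of all genes, or without a filter on low counts, where 18 of 87 were lower against 5.97%. The median log2 fold change of the members was -0.15 and that of all genes was 0.01. The members' median was -0.10 without iohexol replicate 3 (all genes, 0.02) and -0.08 with scaling by library size alone (all genes, 0.08). The 3 iohexol samples lay wholly below the 3 controls for 23 members and wholly above for 4, whereas 19.4% and 18.6% of all genes did so. There were 2 DEGs among the members, COX6A2 and NDUFA4L2, both higher, and 5.28% of all genes were DEGs. Both were among the 3 members called higher. They passed the filter on low counts only through the iohexol samples, since most controls were under its cutoff. The direction of these calls is therefore no independent result. The number called lower was also 4 with scaling by library size alone, and 5, 3 and 4 without control replicate 1, control replicate 2 and iohexol replicate 2. Of all genes, 6.9%, 7.8%, 5.1% and 6.2% were lower in these settings. The number called higher was 1 without control replicate 1 or 3 or iohexol replicate 1 or 2, beside 7.0% to 8.5% of all genes.

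Cisplatin gave changes in both directions with more members higher than lower. Of 81 members tested, 31 were called higher, against 29.2% of all genes, and 12 were called lower, against 30.6% of all genes. Their median log2 fold change was 0.13 beside 0.01 for all genes. The cisplatin samples lay wholly above the controls for 35 members and wholly below for 14, while 32.6% and 32.5% of all genes did so. Only NDUFA13 (higher) and NDUFS4 (lower) were DEGs, against 16.3% of all genes. With scaling by library size alone, which raised the median of all genes to 0.23, 52 members were called higher and 3 lower. Of all genes, 43.6% were then higher and 20.4% lower. The members' median stood 0.12 above that of all genes under both scalings.

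Vancomycin was followed by higher levels of most members. Of 82 tested, 51 were called higher, against 29.0% of all genes, and 8 were called lower, against 28.8% of all genes. The median log2 fold change was 0.41 beside -0.01 for all genes, and it was 0.31, with 44 members called higher and 9 lower, without vancomycin replicate 2. Of all genes, 26.7% were higher and 25.9% lower without that sample. The vancomycin samples lay wholly above the controls for 53 members and wholly below for 9, while 33.9% and 29.3% of all genes did so. DEGs numbered 15, all higher, and 18.5% of all genes were DEGs. They were NDUFA2, NDUFA3, NDUFA13, NDUFB1, NDUFB3, NDUFS4 and NDUFS6 of complex I, UQCRHL and UQCRQ of complex III, COX5B, COX6A2, COX7A2 and NDUFA4L2 of complex IV, and ATP5F1E and ATP5IF1 of complex V. Among these, COX6A2 and NDUFA4L2 passed the filter on low counts only through the vancomycin samples, so their direction is no independent result.

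**Figure D1:**
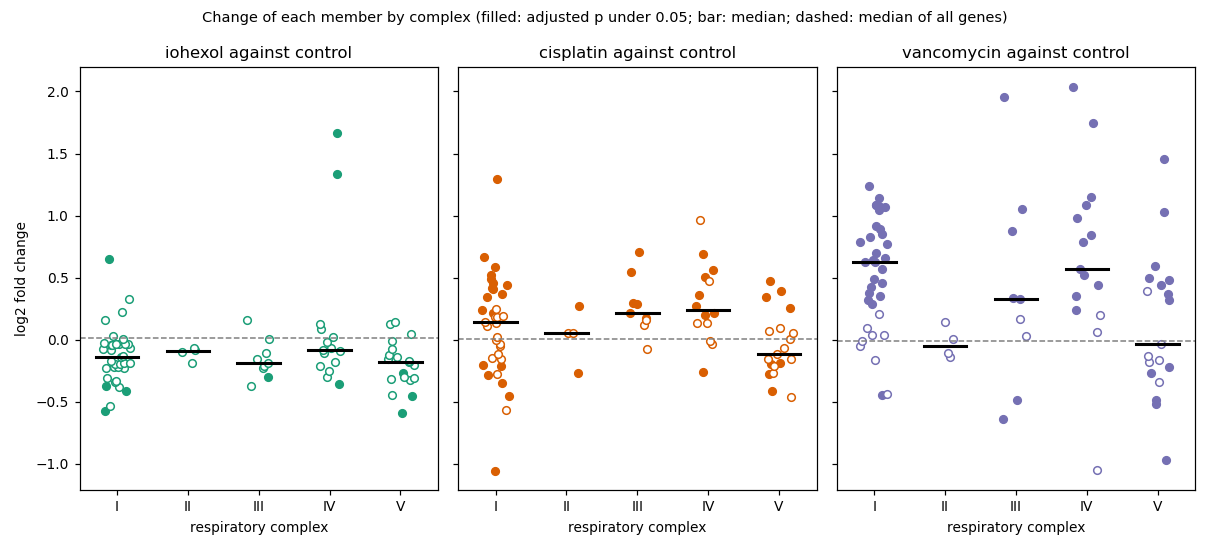
The y axis gives the log2 fold change of each member against control, with 1 panel per drug and the 5 complexes on the x axis. Filled points were called, open points were not, bars mark the median of a complex and the dashed line marks the median of all genes. With vancomycin the medians of complexes I and IV were 0.63 and 0.57 and those of complexes II and V were -0.05 and -0.04.

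Called members were counted by complex, and the differences between complexes were not tested. With vancomycin, 29.0% of all genes were higher and 28.8% lower, while 26 of 35 tested members of complex I and 12 of 15 of complex IV were higher, with 1 and 0 lower. Complex III had 5 higher and 2 lower of 9, complex V had 8 higher and 5 lower of 19, and complex II had none called of 4. With cisplatin, 29.2% of all genes were higher and 30.6% lower. Complex I, with 13 of 35 higher and 6 lower, and complex V, with 4 of 19 higher and 4 lower, had shares higher that were near that background, while 6 of 9 in complex III were higher and 0 lower and 7 of 14 in complex IV were higher and 1 lower. With iohexol no complex had more than 3 called in a direction, where 11.2% of all genes were higher and 9.77% lower. The complexes with 3 called lower were complex I, of 35 tested, and complex V, of 19 tested.

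**Figure D2:**
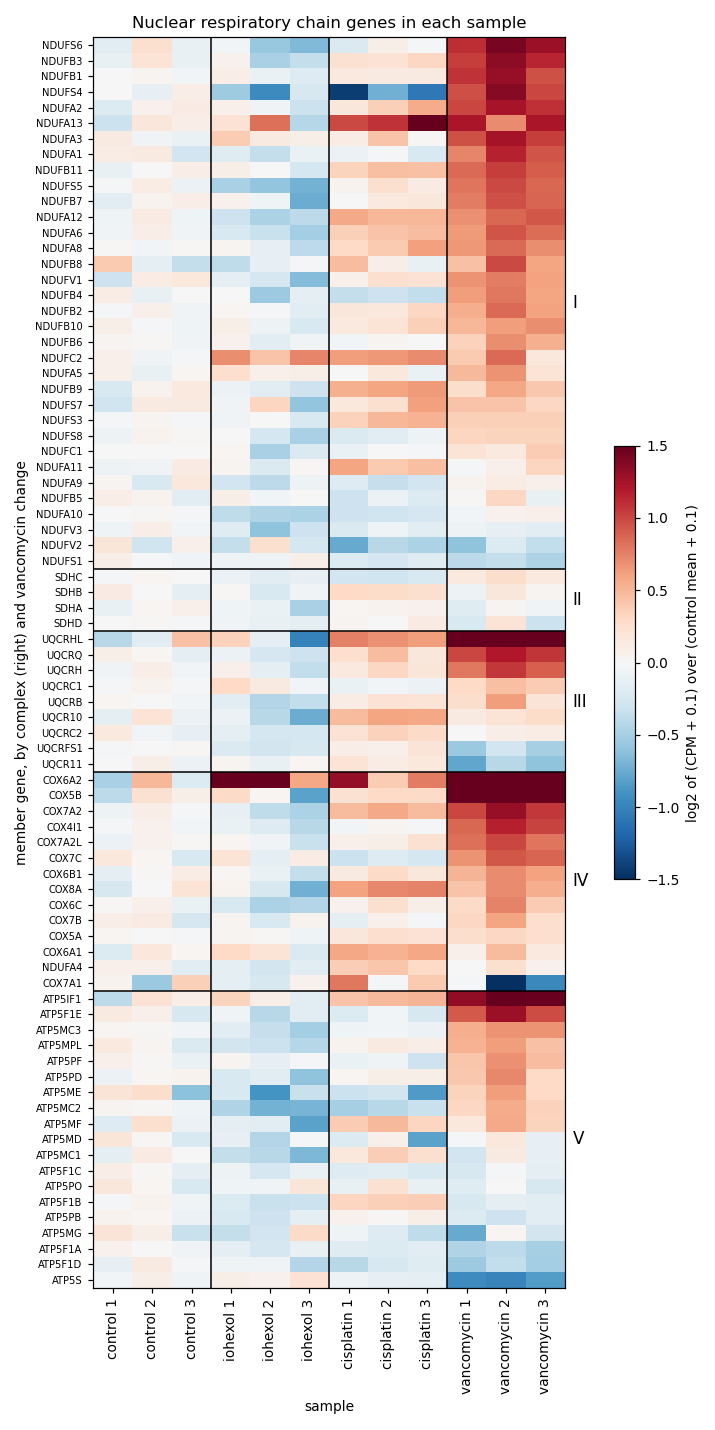
Rows are 80 of the 81 members tested against control with all 3 drugs, and each column is 1 sample. Colour is the log2 ratio of CPM plus 0.1 to the control mean plus 0.1, red above and blue below, and the colour scale ends at 1.5 in either direction. Rows are ordered by complex and, within it, by the vancomycin change, and the red block in the last 3 columns covers most of complexes I and IV.

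Drugs were then compared directly in a fit of all 12 samples, where 83 members were tested. Against iohexol, cisplatin had 41 members higher, beside 26.0% of all genes, and 6 lower, beside 27.9% of all genes. Vancomycin against iohexol had 59 higher, beside 29.0% of all genes, and 6 lower, beside 27.6% of all genes. Vancomycin against cisplatin had 49 higher, beside 34.7% of all genes, and 15 lower, beside 30.0% of all genes. This last split turned with the scaling, since library size alone gave 25 higher and 28 lower and moved the median of all genes to -0.30. Of all genes, 23.15% were then higher and 45.78% lower. The members' median exceeded that of all genes by 0.33 under either scaling. For cisplatin against iohexol the same change of scaling gave 51 higher and 1 lower, beside 33.05% and 23.14% of all genes. The number lower was 2, 1, 3 and 3 without iohexol replicate 1 and cisplatin replicates 1, 2 and 3. Of all genes, 24.76% to 26.05% were lower there. For vancomycin against cisplatin the number lower was 10, 8 and 9 without cisplatin replicates 1, 2 and 3, and 7 and 9 without vancomycin replicates 1 and 3. Between 26.9% and 27.5% of all genes were lower in these fits.

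Many promoters of these genes carry sites for the factors NRF1, GABP (of the ETS family) and YY1, which are known activators of respiratory chain genes. RefSeq promoters (GRCh38.p14, 250 bases before to 50 after the start) matched 68 of the 90 members. GCGCATGCG, the NRF1 motif, was found on either strand in 14.7% of these and in 2.76% of 15843 protein-coding promoters. CCGGAAG, an ETS motif, was in 27.9% and 14.2%, and AAGATGGC, a YY1 motif, was in 16.2% and 3.91%. At least 1 of the 3 was in 51.2% of the 41 matched members higher with vancomycin and in 50% of the 22 other matched members tested. For the single motifs these shares were 14.6% and 18.2% (NRF1), 29.3% and 31.8% (ETS) and 14.6% and 18.2% (YY1), and they were not tested against each other. A promoter is shown for each motif, from members with a large vancomycin change, with the motif in capitals. The NRF1 motif of NDUFS6 began 46 bases before the start, the ETS motifs of COX5B began 37 and 5 bases before it, and the YY1 motif of NDUFS4 began at base 21 after it.
COX5B, chr2:97645812-97646111 (plus strand): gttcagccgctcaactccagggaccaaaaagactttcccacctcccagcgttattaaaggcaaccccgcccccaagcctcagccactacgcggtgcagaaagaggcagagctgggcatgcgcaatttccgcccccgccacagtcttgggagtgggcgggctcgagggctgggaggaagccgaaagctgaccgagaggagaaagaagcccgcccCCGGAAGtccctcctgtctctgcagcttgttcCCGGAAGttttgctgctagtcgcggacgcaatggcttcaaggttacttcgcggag
NDUFS6, chr5:1801157-1801456 (plus strand): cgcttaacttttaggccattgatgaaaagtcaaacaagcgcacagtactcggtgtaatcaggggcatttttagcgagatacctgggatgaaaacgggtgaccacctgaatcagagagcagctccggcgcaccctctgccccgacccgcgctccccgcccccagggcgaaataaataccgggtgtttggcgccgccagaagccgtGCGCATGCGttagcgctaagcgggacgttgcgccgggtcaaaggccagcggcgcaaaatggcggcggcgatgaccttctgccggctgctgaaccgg
NDUFS4, chr5:53560389-53560688 (plus strand): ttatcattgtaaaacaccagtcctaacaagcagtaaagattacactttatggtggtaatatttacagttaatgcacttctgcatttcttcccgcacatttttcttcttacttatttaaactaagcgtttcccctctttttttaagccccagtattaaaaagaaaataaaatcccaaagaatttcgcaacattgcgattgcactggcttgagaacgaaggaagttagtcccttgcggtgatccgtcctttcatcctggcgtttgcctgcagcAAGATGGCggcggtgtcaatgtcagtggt

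Complex I has a core that carries the flavin and iron-sulfur clusters and a shell of accessory subunits that stabilise it. With vancomycin, 22 of 28 tested accessory genes were called higher and 0 lower (median log2 fold change 0.68), whereas 4 of 7 nuclear core genes were higher and 1 lower (median 0.29). Of all genes, 29.0% were higher and 28.8% lower. The difference between core and accessory genes was not tested. NDUFS6 (ENSG00000145494, chromosome 5, 1801400 to 1816605, plus strand of GRCh38), an accessory subunit, was at 31.8, 42.1 and 33.1 CPM in control and 77.2, 96.0 and 87.2 CPM in vancomycin samples (log2 fold change 1.24 ± 0.11, adjusted p = 1.9e-09). NDUFB3, another accessory subunit with 22.2% of its transcript sequence shared with other genes, rose from 18.9, 23.6 and 18.9 to 42.3, 52.3 and 45.4 CPM (log2 fold change 1.14 ± 0.12, adjusted p = 1.8e-08). For both genes every vancomycin sample was above every other sample. NDUFS1, the largest core subunit of the electron input arm, was the member of complex I that fell, from 170, 156 and 154 CPM in control to 122, 124 and 116 CPM (log2 fold change -0.45 ± 0.09, adjusted p = 0.00010), with no overlap between the groups.

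NDUFS4 (ENSG00000164258, chromosome 5, 53560633 to 53683340, plus strand of GRCh38), an accessory subunit whose loss causes a mitochondrial encephalopathy, went in opposite directions with cisplatin and vancomycin. Control samples were at 12.6, 11.5 and 13.5 CPM, iohexol samples at 8.64, 6.39 and 10.6 CPM, cisplatin samples at 4.60, 7.57 and 5.91 CPM and vancomycin samples at 24.6, 32.4 and 25.3 CPM. It fell with cisplatin (log2 fold change -1.06 ± 0.16, adjusted p = 2.5e-05) and rose with vancomycin (log2 fold change 1.08 ± 0.13, adjusted p = 2.1e-07), and vancomycin was higher than cisplatin by 2.18 ± 0.18 on the log2 scale (adjusted p = 2.1e-09). All iohexol samples were below all controls too, but the difference narrowly missed the threshold (log2 fold change -0.54 ± 0.18, adjusted p = 0.051) and passed it with DESeq2, limma-voom, RLE factors, no filter and the fit of all 12 samples (adjusted p = 0.036, 0.045, 0.047, 0.012 and 0.031) and without iohexol replicate 3 (adjusted p = 0.0029).

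With cisplatin other changes in complex I included those of NDUFA13 and NDUFC2. NDUFA13, an accessory subunit also named as a cell death regulator, was low, at 1.31, 1.88 and 1.78 CPM in control and 3.39, 3.63 and 5.26 CPM in cisplatin samples (log2 fold change 1.30 ± 0.26, adjusted p = 0.00033), and 34.5% of its sequence was shared, mostly with an overlapping gene. NDUFC2, an accessory membrane arm subunit with 31.3% shared sequence, was called higher with all 3 drugs. It was at 8.49, 7.72 and 7.89 CPM in control, 13.1, 10.8 and 13.4 CPM in iohexol, 12.5, 12.6 and 13.2 CPM in cisplatin and 10.6, 14.5 and 8.99 CPM in vancomycin samples, with no treated sample as low as a control. Its iohexol call (log2 fold change 0.65 ± 0.15, adjusted p = 0.0085) was lost without control replicate 2 (adjusted p = 0.051), and its vancomycin call (log2 fold change 0.45 ± 0.17, adjusted p = 0.026) without control replicate 2, control replicate 3 or vancomycin replicate 2 (adjusted p = 0.072, 0.060 and 0.23). The vancomycin call was also lost with scaling by library size alone (adjusted p = 0.064).

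With iohexol, NDUFS5 and NDUFA10, both accessory, had the largest called falls in complex I. NDUFS5 was at 122, 134 and 117 CPM in control, 88.6, 82.9 and 76.2 CPM in iohexol and 218, 249 and 226 CPM in vancomycin samples, so that it fell with iohexol (log2 fold change -0.58 ± 0.10, adjusted p = 0.0013) and rose with vancomycin (log2 fold change 0.85 ± 0.09, adjusted p = 1.8e-08) without overlap. It was also the most abundant member of complex I per length in control, at 227 CPM per kb of its gene model. NDUFA10 fell from 113, 114 and 112 to 86.6, 82.8 and 81.4 CPM with iohexol (log2 fold change -0.42 ± 0.08, adjusted p = 0.0043) and was at 91.4, 92.1 and 95.4 CPM with cisplatin (log2 fold change -0.28 ± 0.06, adjusted p = 0.00075), although the cisplatin call was lost with scaling by library size alone (adjusted p = 0.35). NDUFA7, an accessory subunit with 61.6% shared sequence, and the readthrough NDUFC2-KCTD14 did not pass the filter on low counts. NDUFA7 was between 0.203 and 1.15 CPM and NDUFC2-KCTD14 was at 0 in every sample.

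Complex II, which is also the succinate dehydrogenase of the citric acid cycle, moved little. SDHA, the flavoprotein, was at 146, 160 and 166 CPM in control, 150, 147 and 112 CPM in iohexol, 161, 163 and 165 CPM in cisplatin and 138, 162 and 152 CPM in vancomycin samples, and no drug changed it past the threshold (95% interval with vancomycin, -0.28 to 0.07 on the log2 scale). Of its sequence 28.7% was shared, mostly with the pseudogene SDHAP1. SDHB, the iron-sulfur subunit, was higher with cisplatin (98.1, 97.2 and 94.5 CPM beside 87.4, 80.2 and 72.3 CPM in control; log2 fold change 0.27 ± 0.07, adjusted p = 0.0046). SDHC, a membrane anchor, was lower with cisplatin (60.8, 60.4 and 63.4 CPM beside 72.8, 75.7 and 73.8 CPM; log2 fold change -0.27 ± 0.07, adjusted p = 0.0024), but not with scaling by library size alone (adjusted p = 0.53). SDHD, the other anchor, with 34.7% shared sequence, was at 41.4, 41.8 and 40.5 CPM in control and 35.3, 47.5 and 33.1 CPM in vancomycin samples (log2 fold change -0.14 ± 0.12, adjusted p = 0.33), and its vancomycin value passed the threshold without vancomycin replicate 2 (log2 fold change -0.30, adjusted p = 0.029). The intervals with vancomycin were -0.19 to 0.20 on the log2 scale for SDHB and -0.03 to 0.32 on the log2 scale for SDHC.

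Complex III consists of cytochrome b from mitochondrial DNA, nuclear cytochrome c1, the Rieske protein and smaller subunits. The gene of cytochrome c1 falls outside the naming rule and was not among the members. UQCRFS1, the Rieske iron-sulfur protein that passes electrons onward, was at 95.9, 97.3 and 98.7 CPM in control and 66.0, 80.0 and 69.0 CPM in vancomycin samples and fell with vancomycin (log2 fold change -0.49 ± 0.09, adjusted p = 9.8e-05), with 20.9% shared sequence. UQCR11, a small accessory subunit with 25.6% shared sequence, fell from 33.0, 34.9 and 30.9 to 19.1, 24.6 and 21.6 CPM (log2 fold change -0.64 ± 0.12, adjusted p = 5.9e-05). For both, every vancomycin sample was below every control. UQCRQ, another small subunit, went the other way, from 55.9, 53.6 and 47.6 to 105, 120 and 110 CPM (log2 fold change 1.05 ± 0.10, adjusted p = 1.9e-09), and so did UQCRHL, an intronless copy of UQCRH with 20.7% shared sequence, at only 1.67, 2.01 and 3.09 CPM in control and 6.82, 11.3 and 9.24 CPM in vancomycin samples (log2 fold change 1.96 ± 0.24, adjusted p = 2.0e-07).

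UQCR10, which sits beside cytochrome c1, had the largest rise in complex III with cisplatin apart from UQCRHL, from 52.3, 67.0 and 54.5 to 80.5, 87.1 and 86.7 CPM (log2 fold change 0.55 ± 0.09, adjusted p = 2.9e-05). UQCRHL was at 3.88, 3.69 and 3.54 CPM with cisplatin (log2 fold change 0.71 ± 0.25, adjusted p = 0.020), and this call was lost without control replicate 1, control replicate 2 or cisplatin replicate 1 (adjusted p = 0.072, 0.075 and 0.061). UQCRB, which binds near the ubiquinone site, was at 124, 122 and 118 CPM in control and 109, 89.3 and 94.0 CPM in iohexol samples (log2 fold change -0.30 ± 0.10, adjusted p = 0.045). The iohexol call of UQCRB was lost without control replicate 1, 2 or 3 or iohexol replicate 2 (adjusted p = 0.10, 0.14, 0.079 and 0.17), although the groups did not overlap. UQCRB was also called higher with cisplatin (log2 fold change 0.18 ± 0.06, adjusted p = 0.022), a call lost without a filter, in the fit of all 12 samples and without control replicate 2 or 3 or cisplatin replicate 2 or 3 (adjusted p = 0.089, 0.15, 0.076, 0.082, 0.11 and 0.084). Its vancomycin call (log2 fold change 0.33 ± 0.10, adjusted p = 0.0066) was lost without vancomycin replicate 2 (adjusted p = 0.068).

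Complex IV has a catalytic core from mitochondrial DNA and nuclear subunits around it, several of which occur as a widely expressed form and a tissue form. COX5B (ENSG00000135940, chromosome 2, 97646040 to 97648383, plus strand of GRCh38), a zinc-binding subunit, had the largest vancomycin rise among members above 10 CPM. It was at 42.8, 66.0 and 59.6 CPM in control, 68.7, 57.5 and 32.2 CPM in iohexol, 65.7, 69.2 and 68.7 CPM in cisplatin and 183, 223 and 176 CPM in vancomycin samples, a 3.35-fold rise over control (log2 fold change 1.74 ± 0.12, adjusted p = 1.7e-11). The vancomycin samples stood clear of the other 9, which overlapped. COX4I1 (ENSG00000131143, chromosome 16, 85798633 to 85807044, plus strand of GRCh38), the widely expressed form of the largest nuclear subunit, was at 205, 219 and 204 CPM in control, 203, 215 and 206 CPM in cisplatin and 381, 469 and 423 CPM in vancomycin samples (log2 fold change 0.98 ± 0.09, adjusted p = 1.8e-09). The vancomycin levels of COX4I1 were above all others, and its cisplatin levels overlapped the controls.

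The other widely expressed forms differed between drugs. COX7A2 rose with cisplatin and vancomycin, from 56.1, 63.2 and 57.8 CPM in control to 82.1, 87.3 and 81.8 CPM (log2 fold change 0.50 ± 0.07, adjusted p = 1.0e-05) and 118, 146 and 123 CPM (log2 fold change 1.08 ± 0.10, adjusted p = 1.2e-09). COX6B1 rose with vancomycin to 116, 133 and 124 CPM from 74.5, 82.2 and 87.9 CPM (log2 fold change 0.57 ± 0.09, adjusted p = 1.2e-05), and COX7A2L, a factor that joins complexes III and IV into supercomplexes, rose to 99.0, 112 and 97.3 CPM from 52.5, 58.2 and 56.2 CPM (log2 fold change 0.84 ± 0.09, adjusted p = 5.0e-08). COX6A1 and COX8A, with 20.5% and 30.2% shared sequence, had the largest called cisplatin rises of complex IV. COX8A was at 33.8, 39.9 and 45.8 CPM in control and 60.6, 65.7 and 66.7 CPM in cisplatin samples (log2 fold change 0.69 ± 0.09, adjusted p = 6.1e-06), and COX6A1 was at 34.3, 44.3 and 40.4 CPM and 59.5, 56.8 and 59.2 CPM (log2 fold change 0.56 ± 0.09, adjusted p = 3.0e-05). NDUFA4, once counted in complex I and now placed in complex IV, was called with cisplatin only, rising from 109, 109 and 91.8 to 133, 138 and 127 CPM (log2 fold change 0.36 ± 0.07, adjusted p = 0.00040; with vancomycin, log2 fold change 0.06 ± 0.10, adjusted p = 0.61).

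COX7C, a small membrane subunit, and COX6C moved down with 1 drug and up with vancomycin. COX7C was at 122, 111 and 93.1 CPM in control, 86.8, 95.2 and 90.4 CPM in cisplatin and 173, 207 and 199 CPM in vancomycin samples. Its rise with vancomycin (log2 fold change 0.79 ± 0.10, adjusted p = 4.4e-07) was without overlap, whereas the fall with cisplatin (log2 fold change -0.26 ± 0.09, adjusted p = 0.014) was lost without cisplatin replicate 1 or 3 (adjusted p = 0.072 and 0.051) and with scaling by library size alone (adjusted p = 0.69). COX6C was at 81.1, 84.3 and 75.0 CPM in control and 68.3, 57.5 and 59.0 CPM in iohexol samples (log2 fold change -0.36 ± 0.10, adjusted p = 0.025), a call lost without control replicate 1 or 2 or iohexol replicate 2 (adjusted p = 0.056, 0.11 and 0.10). Library size alone and the replicate number as a block removed that call too (adjusted p = 0.057 and 0.078). COX7B was higher with vancomycin (97.9, 120 and 94.1 CPM beside 85.2, 86.0 and 66.4 CPM; log2 fold change 0.35 ± 0.11, adjusted p = 0.0085), a call lost without control replicate 3 or vancomycin replicate 2 (adjusted p = 0.098 and 0.072).

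The tissue forms were low, at up to 2.77 CPM in a sample, and COX4I2, COX7B2 and COX8C were at the floor of detection. COX6A2, the heart and muscle form, with 31.3% shared sequence, was at 0.363, 0.816 and 0.460 CPM in control, 1.94, 2.43 and 0.868 CPM in iohexol, 1.51, 0.739 and 1.00 CPM in cisplatin and 2.50, 2.77 and 1.85 CPM in vancomycin samples. It was called higher with iohexol (log2 fold change 1.67 ± 0.47, adjusted p = 0.025) and vancomycin (log2 fold change 2.04 ± 0.39, adjusted p = 0.00011), and the iohexol call was lost without control replicate 1 or 3 or iohexol replicate 1 or 2 (adjusted p = 0.073, 0.085, 0.078 and 0.12). NDUFA4L2, a relative of NDUFA4 induced in hypoxia, was at 0.435, 0.816 and 0.395 CPM in control, 1.31, 1.85 and 1.00 CPM in iohexol, 0.303, 0.431 and 0.118 CPM in cisplatin and 1.19, 1.22 and 1.42 CPM in vancomycin samples. Its calls with iohexol (log2 fold change 1.34 ± 0.43, adjusted p = 0.043) and vancomycin (log2 fold change 1.15 ± 0.44, adjusted p = 0.027) were both lost with DESeq2 (adjusted p = 0.069 and 0.061). The iohexol call was also lost without control replicate 1 or 3 or iohexol replicate 1 or 2 (adjusted p = 0.12, 0.15, 0.092 and 0.19), and the vancomycin call without control replicate 1 or 3 or vancomycin replicate 3 (adjusted p = 0.095, 0.12 and 0.085). The replicate number as a block removed the iohexol call too (adjusted p = 0.055). Fitting without a filter removed the vancomycin call (adjusted p = 0.058). COX6A2 and NDUFA4L2 passed the filter with iohexol and vancomycin only through the drug samples, since most controls were under its cutoff. Their direction with these drugs is therefore no independent result. NDUFA4L2 did not pass the filter with cisplatin. COX7A1, the muscle form, was at up to 1.27 CPM and was not called with any drug (with vancomycin, log2 fold change -1.05 ± 0.65, adjusted p = 0.17). Leaving out vancomycin replicate 1 gave COX7A1 a log2 fold change of -2.10 (adjusted p = 0.036), and limma-voom gave it -1.79 (adjusted p = 0.0455). COX6B2, with 39.0% shared sequence, did not pass the filter in the fits against control, at up to 1.05 CPM, and COX4I2, COX7B2 and COX8C held 0 to 2 counts per sample.

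**Figure D3:**
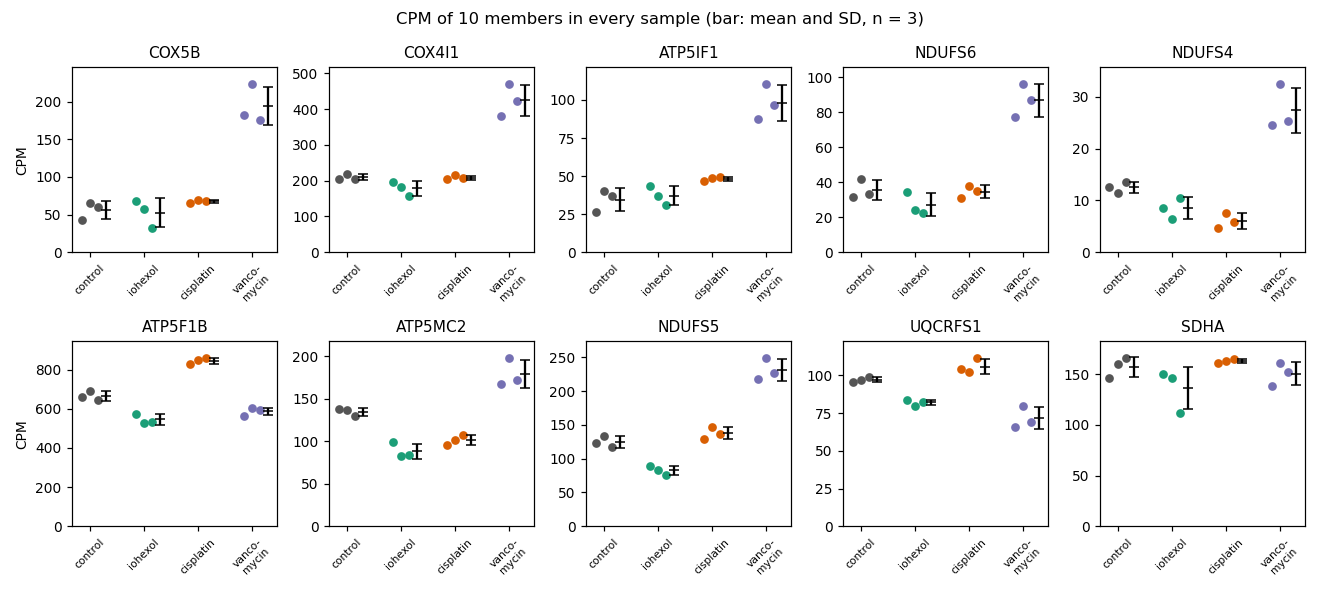
CPM of 10 members in each of the 12 samples is shown on the y axis of each panel, from 0, with the 4 groups on the x axis. Points are samples and the bar beside them is the mean with its SD (n = 3). COX5B, COX4I1, ATP5IF1, NDUFS6 and NDUFS4 were highest in all 3 vancomycin samples, ATP5F1B in all 3 cisplatin samples, and the groups of SDHA overlapped.

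Complex V joins the F1 head, where ATP is made, to the c ring in the membrane by a stalk, and ATP5IF1 blocks its reverse action. The 5 ATP5F1 genes encode the head together with the central stalk. With vancomycin, 3 of these 5 genes were lower and 1 was higher, with a median log2 fold change of -0.22. Of all genes, 28.8% were lower and 29.0% higher. ATP5F1B (ENSG00000110955, chromosome 12, 56638175 to 56646068, minus strand of GRCh38), the catalytic beta subunit, was the most abundant member of complex V per length, at 286.5 CPM per kb in control. It was at 659, 693 and 644 CPM in control, 576, 529 and 533 CPM in iohexol, 829, 851 and 860 CPM in cisplatin and 565, 603 and 593 CPM in vancomycin samples, so that the cisplatin samples were above and the other drugs' samples below all controls. The changes were log2 fold change -0.27 ± 0.08, adjusted p = 0.031 with iohexol, log2 fold change 0.35 ± 0.05, adjusted p = 1.8e-05 with cisplatin and log2 fold change -0.22 ± 0.08, adjusted p = 0.022 with vancomycin. The iohexol call of ATP5F1B was lost without control replicate 1, 2 or 3 or iohexol replicate 2 (adjusted p = 0.067, 0.16, 0.054 and 0.11), and its vancomycin call without control replicate 2 or vancomycin replicate 1 or 3 (adjusted p = 0.12, 0.076 and 0.066). Library size alone and the replicate number as a block also removed the iohexol call (adjusted p = 0.091 and 0.11). ATP5F1A, the alpha subunit, was at 355, 338 and 328 CPM in control and 250, 260 and 241 CPM in vancomycin samples (log2 fold change -0.49 ± 0.08, adjusted p = 2.5e-05). ATP5F1D, the delta subunit of the central stalk, fell with vancomycin from 72.4, 87.0 and 78.1 to 54.1, 61.4 and 55.6 CPM (log2 fold change -0.52 ± 0.10, adjusted p = 8.7e-05). Its cisplatin value (log2 fold change -0.28 ± 0.08, adjusted p = 0.0071) was no longer called without control replicate 2 or cisplatin replicate 1 (adjusted p = 0.051 and 0.061) or with scaling by library size alone (adjusted p = 0.54). ATP5F1E, the small epsilon subunit with 28.5% shared sequence, was the ATP5F1 gene that rose, from 142, 136 and 110 to 246, 314 and 256 CPM (log2 fold change 1.03 ± 0.11, adjusted p = 1.4e-08).

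ATP5IF1 (ENSG00000130770, chromosome 1, 28236109 to 28246906, plus strand of GRCh38), the inhibitor, was at 26.3, 40.3 and 37.1 CPM in control, 43.7, 37.0 and 31.1 CPM in iohexol, 46.6, 48.5 and 49.3 CPM in cisplatin and 87.3, 110 and 96.5 CPM in vancomycin samples. It rose with cisplatin (log2 fold change 0.47 ± 0.11, adjusted p = 0.0016) and vancomycin (log2 fold change 1.46 ± 0.12, adjusted p = 5.5e-10), with both groups above every control and vancomycin above every cisplatin sample, and its iohexol samples overlapped the controls. ATP5MF, the f subunit, rose with cisplatin from 54.3, 73.5 and 58.7 to 81.1, 86.8 and 77.7 CPM (log2 fold change 0.39 ± 0.09, adjusted p = 0.0014). ATP5S, once described as a coupling factor of the synthase, had the largest called fall of any member with vancomycin, from 24.4, 26.7 and 23.9 to 12.9, 12.5 and 14.0 CPM (log2 fold change -0.97 ± 0.12, adjusted p = 3.6e-07), without overlap. The readthrough ATP5MF-PTCD1 and the copy ATP5MGL, with 90.2% and 24.0% shared sequence, did not pass the filter and were at up to 0.242 CPM.

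The 3 genes of the c ring encode the same mature subunit behind different import signals. Their log2 fold changes were all negative with iohexol (-0.59 to -0.31). They ranged from -0.42 to 0.26 with cisplatin and from -0.13 to 0.59 with vancomycin. ATP5MC1 was at 40.2, 48.3 and 44.4 CPM in control, 34.6, 33.2 and 27.7 CPM in iohexol, 49.4, 57.3 and 52.4 CPM in cisplatin and 36.2, 48.6 and 40.7 CPM in vancomycin samples. ATP5MC2 was at 139, 137 and 130, 98.7, 82.7 and 83.3, 95.4, 101 and 107 and 168, 198 and 172 CPM in the same order of groups, and ATP5MC3 at 95.3, 94.1 and 90.4, 83.7, 73.1 and 65.7, 88.9, 90.5 and 88.0 and 137, 149 and 149 CPM. ATP5MC2 fell with iohexol (log2 fold change -0.59 ± 0.10, adjusted p = 0.0011) and cisplatin (log2 fold change -0.42 ± 0.07, adjusted p = 3.4e-05) but rose with vancomycin (log2 fold change 0.36 ± 0.09, adjusted p = 0.0011), with no overlap between control and any drug. ATP5MC1 was lower with iohexol (log2 fold change -0.46 ± 0.12, adjusted p = 0.019), a call lost without control replicate 2 (adjusted p = 0.093), and higher with cisplatin (log2 fold change 0.26 ± 0.09, adjusted p = 0.015), a call lost without cisplatin replicate 2 (adjusted p = 0.11). The iohexol call was also lost with the replicate number as a block (adjusted p = 0.053). The cisplatin call was also lost in the fit of all 12 samples (adjusted p = 0.067). ATP5MC3 rose with vancomycin (log2 fold change 0.59 ± 0.09, adjusted p = 2.9e-06), and its iohexol value (log2 fold change -0.31 ± 0.10, adjusted p = 0.052) passed the threshold with RLE factors (adjusted p = 0.044) and without iohexol replicate 1 (adjusted p = 0.028). That value also passed with DESeq2, limma-voom, no filter and the fit of all 12 samples (adjusted p = 0.034, 0.049, 0.017 and 0.0077). The difference between the 3 genes in their response was not tested.

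The length of the coding sequence moved with the vancomycin changes. Of members with a coding sequence under 450 bases, 32 of 42 were higher and 1 was lower (median log2 fold change 0.61). From 450 to 899 bases 17 of 29 were higher and 4 lower (median 0.32), and at 900 bases or more 2 of 11 were higher and 3 lower (median -0.05). Of other protein-coding genes in the same classes, 49.8%, 41.7% and 26.9% were higher and 13.9%, 20.1% and 34.1% lower, with medians of 0.37, 0.21 and -0.06. With cisplatin the medians were 0.19, 0.07 and -0.15 for members and 0.19, 0.08 and -0.09 for other genes. Across members, which are not independent replicates and share their libraries, Spearman's rho between coding length and log2 fold change was -0.07 with iohexol, -0.23 with cisplatin and -0.42 with vancomycin. The part of length in the members' changes was not tested.

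**Figure D4:**
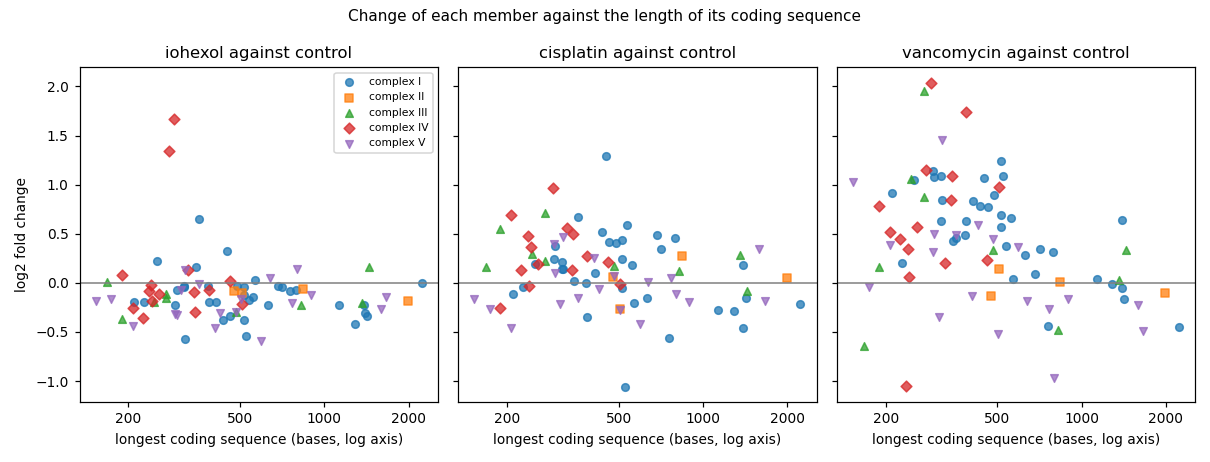
The x axis is the longest coding sequence of each member in bases on a log axis, and the y axis is its log2 fold change against control, with 1 panel per drug and a marker for each complex. With vancomycin the members under 450 bases had a median of 0.61 and those of 900 bases or more a median of -0.05.

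The 13 subunits made from mitochondrial DNA moved against the nuclear members with vancomycin. Of these, 9 were lower and 1 was higher with vancomycin (median log2 fold change -0.56), 9 were lower and 2 higher with cisplatin (median -0.31) and 0 were lower and 1 higher with iohexol (median -0.05). Of all genes, 28.8%, 30.6% and 9.77% were lower and 29.0%, 29.2% and 11.2% higher, in the same order of drugs. MT-CO1, a catalytic subunit of complex IV, was at 15150 ± 1055 CPM in control and 10380 ± 484 CPM in vancomycin samples (SD, n = 3; log2 fold change -0.59 ± 0.08, adjusted p = 8.9e-07). MT-CYB, the cytochrome b of complex III, changed by -0.80 ± 0.08 (adjusted p = 1.1e-08). MT-ATP6, a subunit of complex V, changed by -0.93 ± 0.08 (adjusted p = 7.5e-10), while MT-ATP8, whose reading frame overlaps that of MT-ATP6, went from 8.44 ± 2.30 to 73.0 ± 10.4 CPM (SD, n = 3; log2 fold change 3.06 ± 0.15, adjusted p = 4.6e-14). MT-ATP6 was at 3751 CPM in control and 2032 CPM in vancomycin samples. How reads over the overlap of these genes were counted is not given. The MT-ATP8 value therefore cannot be read as a separate change of level.

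**Figure D5:**
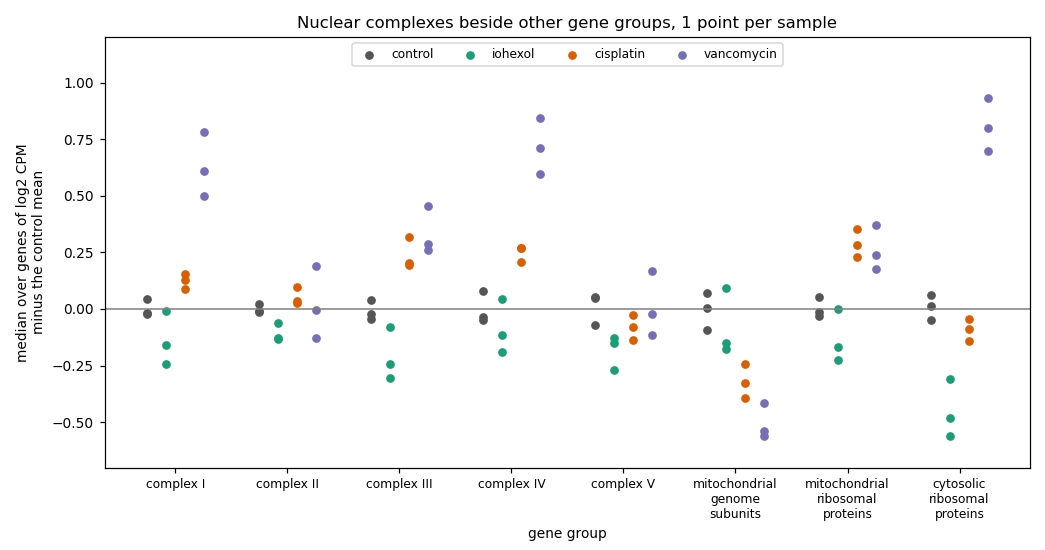
The y axis is the median, over the genes of a group, of log2 CPM minus the control mean, with 1 point per sample, and the x axis gives the 5 complexes and 3 other gene groups. In vancomycin samples complex I lay between 0.50 and 0.78 and complex IV between 0.60 and 0.84, cytosolic ribosomal protein genes between 0.70 and 0.93, and the mitochondrial genome subunits between -0.56 and -0.42.

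Ribosomal protein genes were counted beside the members. Of all genes, 29.0% were higher and 28.8% lower with vancomycin, 29.2% and 30.6% with cisplatin, and 11.2% and 9.77% with iohexol. Of 84 cytosolic ribosomal protein genes tested, 68 were higher and 2 lower with vancomycin (median log2 fold change 0.78), 14 higher and 32 lower with cisplatin (median -0.08), and 1 higher and 63 lower with iohexol (median -0.44). Of 78 mitochondrial ribosomal protein genes, 36 were higher and 17 lower with vancomycin (median 0.24), 43 higher and 8 lower with cisplatin (median 0.28), and 2 higher and 9 lower with iohexol (median -0.13).

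Other genes of the pathway were mixed. Beside the counts here and in the next paragraph, 29.2% of all genes were higher and 30.6% lower with cisplatin. With vancomycin these shares were 29.0% and 28.8%. NDUFAB1, the acyl carrier subunit of complex I whose symbol falls outside the naming rule, rose with cisplatin by 0.70 ± 0.09 and with vancomycin by 0.82 ± 0.11 on the log2 scale (adjusted p = 3.5e-06 and 6.7e-07). Of 15 complex I assembly factors, 7 were higher and 2 lower with cisplatin and 5 higher and 3 lower with vancomycin. NDUFAF2 had the largest vancomycin rise among them (1.29 ± 0.15, adjusted p = 1.3e-07) and NUBPL, which delivers iron-sulfur clusters, the largest cisplatin fall (-1.69 ± 0.13, adjusted p = 7.5e-09). Of 20 tested complex IV assembly factors, 6 were higher and 2 lower with cisplatin and 7 higher and 6 lower with vancomycin. The assembly factors of complexes II, III and V numbered 4, 6 and 4, of which 2, 5 and 2 were higher with cisplatin and 0, 2 and 1 with vancomycin. Of the 13 citric acid cycle genes, 3 were higher and 5 lower with cisplatin and 5 higher and 4 lower with vancomycin. At most 1 gene of any of these lists was called in a direction with iohexol, where 11.2% of all genes were higher and 9.77% lower.

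Among electron carriers, CYCS, the cytochrome c that links complexes III and IV, rose with cisplatin (0.59 ± 0.07, adjusted p = 7.8e-07) and less with vancomycin (0.23 ± 0.09, adjusted p = 0.038). Of the 14 genes for carriers, mostly of ubiquinone synthesis, 2 were higher and 4 lower with each of these drugs. PDSS2, which helps build the ubiquinone tail, had the largest fall with cisplatin (-2.15 ± 0.20, adjusted p = 8.4e-08). Of 12 regulators, 2 were higher and 7 lower with cisplatin and 1 higher and 5 lower with vancomycin. PPARGC1A, a coactivator of mitochondrial biogenesis, was at 39.6 ± 2.08 CPM in control, 67.0 ± 9.60 in iohexol, 15.9 ± 0.800 in cisplatin and 19.8 ± 4.52 in vancomycin samples (SD, n = 3). It rose with iohexol (0.77 ± 0.12, adjusted p = 0.00060) and fell with cisplatin (-1.32 ± 0.09, adjusted p = 2.2e-09) and vancomycin (-1.04 ± 0.14, adjusted p = 6.3e-07). TFAM, the mitochondrial transcription factor, rose with cisplatin (0.74 ± 0.07, adjusted p = 7.2e-08) and fell with vancomycin (-0.49 ± 0.11, adjusted p = 0.00040). NRF1 fell with cisplatin (-0.40 ± 0.12, adjusted p = 0.0075) and stood at 0.02 ± 0.12 with vancomycin (adjusted p = 0.91).

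Many members share sequence with pseudogenes or overlap other genes, and how the counting treated reads with several matches is not given in the sources used here. Only 38 of the 90 members had under 10% of their 31-base windows in another gene. Among those tested, 23 of 35 were higher and 2 lower with vancomycin (median log2 fold change 0.44), 15 of 34 higher and 5 lower with cisplatin (median 0.15), and 1 of 35 higher and 6 lower with iohexol (median -0.21). Of all genes, 29.0% were higher and 28.8% lower with vancomycin, 29.2% and 30.6% with cisplatin, and 11.2% and 9.77% with iohexol. The library kit was not described as strand-specific, so reads of overlapping genes on opposite strands cannot be told apart.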

How the data were processed

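Poly(A) RNA of 12 HK-2 samples was sequenced by the authors with a NEBNext Ultra kit. The deposited file holds raw counts per gene with GRCh38 coordinates. The submitters' processing notes name CASAVA 1.8, fastp, HISAT2 2.0.5, featureCounts 1.5.0-p3 and DESeq2 1.20.0, and neither the roles of these tools nor the strand setting are given in the sources used here. Every count column was matched to a sample by its description, and 0 columns were left unused.

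Counts were fitted with edgeR 4.0.16 in R 4.3.3 (TMM factors, filterByExpr set to 10 counts per sample and 15 in all, quasi-likelihood test, Benjamini-Hochberg adjustment over all genes tested), separately for each drug with its controls, and over all 12 samples for contrasts between drugs. Values after ± are standard errors of a log2 fold change unless named SD, and the procedure was tested on simulated counts. No 2 replicates agreed within sampling noise (chi-square per degree of freedom 2.34 to 17.5), so none was treated as a library deposited again, which does not show that they were separate cultures. Named members were, in each complex and comparison, the 2 largest called rises and falls, with complex II, the c ring, ATP5IF1, the isoform pairs and members failing the filter always named. One of these members and 1 marker gene are not reported here by name, though counts include them. ATP5F1A, ATP5F1B, NDUFA12, NDUFB4, NDUFA2, NDUFA3 and NDUFB1, and the classes of coding length (longest GENCODE 29 coding sequence), were chosen after values were seen. The members and lists were chosen with earlier results of these data known. Shared sequence was the share of 31-base windows, every 5 bases, of a gene's transcripts found in another gene's. The alternatives were DESeq2 1.42.0, limma-voom (limma 3.58.1), RLE factors, library size alone, other filters, other samples in the fit, the replicate number as a block, single samples left out and members with little shared sequence.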

Additional observations from a re-analysis of the deposited data

Results flagged for a closer look

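The response of 14 pairs of member and drug contrast differed between 2 drugs in the strictest sense, since the member was called higher with 1 drug and lower with the other against the same controls, and the direct contrast of the 2 drugs was called too. The many direct contrasts in which only the size differed were not singled out. The share of all genes that met the same rule was not counted, so the number of pairs is no result about these members. Of all genes, 29.2% were called higher and 30.6% lower with cisplatin. With vancomycin the shares were 29.0% and 28.8%, and with iohexol 11.2% and 9.77%. Each drug comparison used the same 3 control samples, which cancel in the direct contrast. A call in the direct contrast was itself part of the rule that chose these pairs. Its adjusted p and its stability are therefore not independent support. These 14 direct contrasts kept their direction and their side of the threshold under every alternative setting, library size scaling and single samples left out included, but some of the calls against control on which the choice rests did not. Those of UQCRB were lost under several settings with iohexol (adjusted p up to 0.17) and cisplatin (up to 0.15) and under 1 with vancomycin (0.068), and COX6C, COX7C, ATP5MC1 and ATP5F1B also lost calls.

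Between cisplatin and iohexol, 4 members were flagged because they were higher with cisplatin and lower with iohexol. The differences, cisplatin minus iohexol, were 0.92 on the log2 scale for NDUFA12 of complex I, 0.50 for UQCRB of complex III, 0.63 for ATP5F1B and 0.74 for ATP5MC1 of complex V (edgeR adjusted p = 2.1e-07, 0.00036, 1.4e-07 and 2.4e-05). Between vancomycin and iohexol, 5 members were higher with vancomycin and lower with iohexol. The differences were 1.22 for NDUFA12, 1.48 for NDUFS5, 0.69 for UQCRB, 0.87 for COX6C and 1.02 for ATP5MC2 (adjusted p = 3.0e-09, 1.9e-11, 8.5e-06, 1.1e-06 and 7.1e-09). NDUFA12, an accessory subunit of complex I, was chosen here after its values were seen, and its iohexol call against control was lost without control replicate 1, 2 or 3 or iohexol replicate 1 or 2 (adjusted p = 0.057, 0.17, 0.059, 0.059 and 0.13). Library size alone and the replicate number as a block removed that call too (adjusted p = 0.079 and 0.12).

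Between vancomycin and cisplatin, 4 members were higher with vancomycin and lower with cisplatin, with differences of 1.02 for NDUFB4, 2.18 for NDUFS4, 1.09 for COX7C and 0.82 for ATP5MC2, and ATP5F1B was lower with vancomycin and higher with cisplatin, with a difference of -0.53 (adjusted p = 7.5e-08, 2.1e-09, 1.9e-08, 9.0e-08 and 9.3e-07). NDUFS4 had the widest difference of these 14. NDUFB4, an accessory subunit chosen after its values were seen, was no longer called lower with cisplatin when scaling used library size alone (adjusted p = 0.11).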

How the results depend on the processing

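Some results depended on the scaling of the libraries and on the small number of samples. Under scaling by library size alone, 131 of the 157 pairs of named member and comparison kept direction and call. With library size alone, 4 members were called lower with iohexol, 52 higher and 3 lower with cisplatin (median log2 fold change 0.350), 1 lower for cisplatin against iohexol (median 0.393), and 25 higher and 28 lower for vancomycin against cisplatin (median 0.031), while the median for vancomycin against iohexol was 0.389. Under that scaling the cisplatin values of ATP5F1A (0.033), ATP5MC3 (0.153), COX4I1 (0.210) and NDUFS1 (0.003) changed sign. It also moved the median of all genes, for vancomycin against cisplatin from 0.03 to -0.30, and it left the members' median relative to all genes within 0.01. Of all genes, it called 6.9% lower with iohexol, 43.6% higher and 20.4% lower with cisplatin, and 23.1% lower for cisplatin against iohexol. For vancomycin against cisplatin it called 23.15% higher and 45.78% lower. Without a filter, 18 members were lower with iohexol and 3 lower for cisplatin against iohexol, beside 5.97% and 12.8% of all genes. A fit of all 12 samples called 18 lower with iohexol, and a minimum of 10 counts in every sample left 1 higher with iohexol. Of all genes, 13.4% and 11.5% were so called. The cause was not tested.

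Leaving out 1 sample at a time gave 1 to 4 members higher and 3 to 11 lower with iohexol, a cisplatin median of 0.093 to 0.151, 1 to 5 members lower for cisplatin against iohexol, a median of 0.523 to 0.701 for vancomycin against iohexol, and 7 to 15 members lower for vancomycin against cisplatin. Of all genes, 6.3% to 14.8% were higher and 5.1% to 13.5% lower with iohexol in these fits. The shares lower were 24.8% to 27.1% for cisplatin against iohexol and 26.9% to 27.5% for vancomycin against cisplatin. The replicate numbers did not pair the samples, since deviations from the group means correlated at -0.18 to 0.10 (mean -0.02) for the 18 pairs with the same number and at 0.01 on average for the 36 others. With the number as a replicate block, 3 members were lower with iohexol, 3 were lower for cisplatin against iohexol, and 52 were higher with vancomycin. The shares of all genes were 5.84%, 27.0% and 30.7%. Among 157 pairs of named member and comparison, alternatives kept direction and call 2049 times, 60 of them with a change of sign and neither value past the threshold, lost a call 91 times, gained one 46 times and changed a sign beside a call 4 times. Members near the floor of 3 counts could not be compared at this depth. That floor was 0.165 to 0.213 CPM by sample, scaled to the library total alone.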
